A study of Homo sapiens with 27 samples.

Results

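ANXA3, CDC42EP3, ABCC12, DOK7, ICAM5 and HAGLR are 6 genes whose RNA moved away from the control level in opposite directions in 2 lines of T47D cells, one expressing the C321fs and the other the A333fs mutant of GATA3. They were chosen for that pattern from the RNA-seq counts of the lines, so their direction in C321fs and in A333fs is the reason they are here and is given as a description with no test. The count table holds 26485 genes, all 6 of them among the 14789 that passed the filter on low counts. T47D is an established line of luminal breast cancer cells. The study made 4 stable pools by lentiviral transduction and puromycin selection, of which the control received the pHAGE empty vector and the others a 3xTy1-tagged GATA3 with a splice site deletion (Splice del), the C321 frameshift (C321fs) or the A333 frameshift (A333fs), and each pool gave 3 RNA libraries. All 4 pools also kept their own wild-type GATA3, and each mutant is represented by 1 pool, so that what is particular to a pool and what comes with its mutant cannot be told apart. ChIP-seq of the lines was not analysed here.

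GATA3 is a zinc finger transcription factor of the luminal breast epithelium that binds DNA words containing GATA through its zinc fingers, and the second of these fingers makes the main contact. The mutants are truncated by a premature stop. Splice del loses the wild-type sequence of the second finger altogether, and C321fs and A333fs lose part of it. The 6 genes have no known pathway in common. ANXA3 encodes annexin A3, a calcium-dependent phospholipid-binding protein. CDC42EP3 encodes an effector of the small GTPase CDC42 that acts on septins and actin. ABCC12 encodes a transporter of the ATP-binding cassette family C. DOK7 encodes the cytoplasmic adaptor that activates the receptor kinase MuSK at the neuromuscular junction. ICAM5 encodes an adhesion molecule of the immunoglobulin superfamily best known from neurons of the forebrain. HAGLR is a long noncoding RNA transcribed from the HOXD cluster.

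The libraries held 27872208 to 36788024 counted fragments. Levels are given as CPM, the share of a gene in the fragments of its library on the usual CPM scale, after normalization by the trimmed mean of M values (TMM). Of the luminal markers checked, 8 of 8 lay between 201 and 8479 CPM in every library, and 9 of 12 markers of other cell types lay below 1 CPM in every library (the exceptions were ACTA2, COL1A1 and CD68). GATA3 itself, counted without distinguishing the wild-type from the mutant transcript, had a mean of 1281 ± 50.8 CPM (SD, n = 3) in the control line. The means were 1142 ± 12.5 CPM for C321fs, 1016 ± 11.03 CPM for A333fs and 1001 ± 45.0 CPM for Splice del. A gene was called changed at a Benjamini-Hochberg adjusted p below 0.01 in edgeR's quasi-likelihood test and a fold change over 1.5, which is 0.585 on the log2 scale. The lines are labelled as replicates without naming separate cultures, so a p-value measures the spread between these libraries.

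Promoter sequences are shown because GATA3 acts by binding short DNA words. RefSeq (GRCh38.p14, the same assembly as hg38) lists 14 start sites over the 6 genes, 1 for ANXA3 and for ICAM5, 2 for DOK7, 3 for CDC42EP3 and for ABCC12 and 4 for HAGLR. Windows of 250 bases before to 50 after each start were searched on both strands for the GATA words AGATAA or AGATAG or TGATAA or TGATAG, and for the estrogen receptor half-site GGTCA, since T47D cells also express that receptor. Of the 14 windows, 1 held a GATA word, where 25.0% of the 35116 windows of all genes hold one. It belongs to CDC42EP3. The half-site was in 4 of the 14 windows, against 37.4% of all windows. The shorter word AGAT, which is contained in 2 of the 4 GATA words, was in 7 of the 14 against 69.9%. The forkhead words TGTTTAC and TGTTTGC were in 0 of the 14 against 7.17%. The 250 bases before the start are printed for the window with the GATA word, for DOK7, whose levels ran opposite to those of CDC42EP3, and for ABCC12, in which the Splice del libraries overlapped C321fs and not A333fs. Capitals mark the GATA word (read on the opposite strand, at base -171) and the half-sites, at base -85 in CDC42EP3 and at base -98 in ABCC12. The ABCC12 window is 1 of the 3 of that gene, and the others hold no half-site. The DOK7 stretch holds neither a GATA word nor a half-site, and the half-site of its window lies after the start, outside the printed bases.
CDC42EP3, chr2:37672950-37673199, minus strand: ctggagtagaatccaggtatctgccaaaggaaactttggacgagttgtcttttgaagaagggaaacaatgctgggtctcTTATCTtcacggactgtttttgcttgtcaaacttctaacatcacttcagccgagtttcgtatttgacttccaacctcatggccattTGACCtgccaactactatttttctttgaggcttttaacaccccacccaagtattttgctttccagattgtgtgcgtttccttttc
DOK7, chr4:3463056-3463305, plus strand: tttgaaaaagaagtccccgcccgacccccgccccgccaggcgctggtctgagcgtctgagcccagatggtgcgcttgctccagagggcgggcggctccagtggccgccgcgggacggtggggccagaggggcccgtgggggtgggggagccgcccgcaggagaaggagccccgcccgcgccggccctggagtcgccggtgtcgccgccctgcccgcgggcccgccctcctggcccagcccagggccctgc
ABCC12, chr16:48146475-48146724, minus strand: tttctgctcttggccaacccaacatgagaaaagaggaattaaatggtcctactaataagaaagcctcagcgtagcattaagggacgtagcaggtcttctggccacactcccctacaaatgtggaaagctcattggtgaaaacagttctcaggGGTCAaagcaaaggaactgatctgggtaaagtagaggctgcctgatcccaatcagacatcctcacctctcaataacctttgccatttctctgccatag
The start that RefSeq gives for this CDC42EP3 window lies upstream of the gene as it was counted, and that of ABCC12 lies inside it. A word in these letters is not evidence of binding, and a window without one says nothing about the factor elsewhere.

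CDC42EP3 (hg38 chr2:37641882-37672535, minus strand, 5898 bases of exons) had the highest level of the 6 in control. Its control libraries had 30.5, 30.8 and 32.7 CPM. The C321fs libraries had 12.5, 15.0 and 12.5 CPM, all below control, and the A333fs libraries had 62.3, 65.6 and 62.9 CPM, all about 2 times control. In fitted log2 fold changes against control this was -1.23 (SE 0.07) in C321fs and 1.02 (SE 0.07) in A333fs, and the difference between the lines was 2.25 on the log2 scale. The Splice del libraries, which were no part of the pattern named for the choice of genes, had 62.4, 59.9 and 61.9 CPM. Their range overlapped that of A333fs and no other. CDC42EP3 rose in Splice del by 0.97 on the log2 scale (SE 0.07, edgeR adjusted p = 2.40e-08). The control libraries of that test are the same ones the choice used, and this holds for every test of Splice del given here.

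ANXA3 (chr4:78551588-78610451, plus strand, 1618 bases of exons) went the same way as CDC42EP3 in C321fs and A333fs but not in Splice del. Control gave 5.16, 6.51 and 7.88 CPM, the widest spread of the 6 genes in control relative to its mean. C321fs gave 3.35, 4.61 and 3.86 CPM and A333fs 13.4, 15.1 and 13.6 CPM, neither overlapping control. The log2 fold changes were -0.73 (SE 0.15) and 1.10 (SE 0.13). Splice del gave 6.01, 5.91 and 5.47 CPM, inside the range of control. Its difference from control was -0.16 on the log2 scale (SE 0.14, edgeR adjusted p = 0.324), which did not pass the test.

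**Figure D1:**
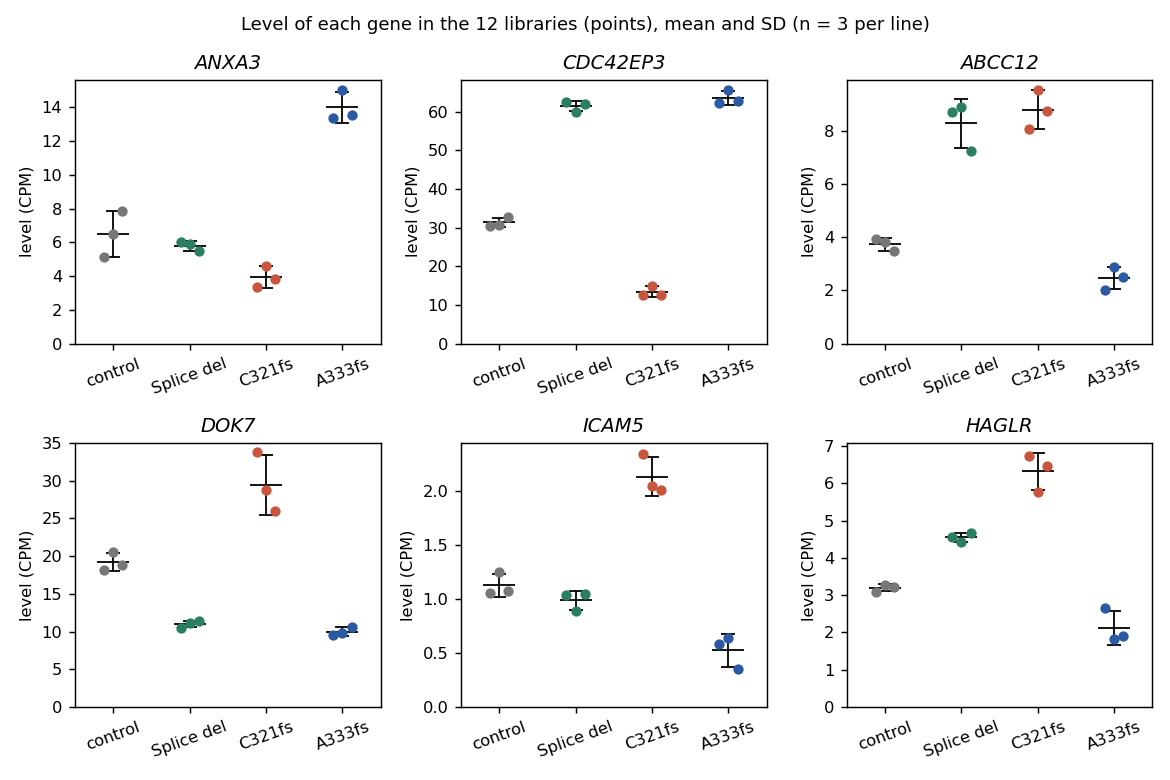
Level of each of the 6 genes in CPM (linear axes from 0, a different range in each panel) for the 4 lines on the horizontal axis. Points are the 12 libraries and black bars are the mean and SD of the 3 libraries of a line. In every panel control lies between C321fs and A333fs, while Splice del (green) is beside A333fs for CDC42EP3 and DOK7, beside C321fs for ABCC12 and near control for ANXA3 and ICAM5.

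The other 4 genes were higher in C321fs and lower in A333fs. DOK7 (chr4:3463306-3501473, plus strand, 3844 bases of exons) had 18.2, 20.6 and 18.9 CPM in control and 33.8, 28.7 and 25.95 CPM in C321fs. A333fs libraries were at 9.49, 9.83 and 10.7 CPM, about 2 times lower than control. The C321fs libraries varied most among themselves (29.5 ± 3.97 CPM, SD, n = 3) but all lay above control. The log2 fold changes were 0.62 (SE 0.09) in C321fs and -0.94 (SE 0.10) in A333fs. In Splice del DOK7 had 10.5, 11.2 and 11.4 CPM, a range that overlapped A333fs. DOK7 fell by 0.80 on the log2 scale in Splice del (SE 0.09, edgeR adjusted p = 5.58e-06). DOK7 was thus low in the 2 lines where CDC42EP3 was high, and high in the line where CDC42EP3 was low. Over the 12 libraries the log2 CPM of the 2 genes had a Pearson r of -0.975, a description over libraries of 4 pools. Its negative sign follows largely from the choice of the genes, and only the Splice del libraries were outside the pattern named for that choice.

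ABCC12 (chr16:48082973-48146770, minus strand, 5168 bases of exons) grouped the lines in another way. Control had 3.94, 3.82 and 3.47 CPM, C321fs 8.10, 9.57 and 8.78 CPM and A333fs 2.03, 2.87 and 2.49 CPM. No range overlapped between these 3 lines, and the log2 fold changes were 1.23 (SE 0.12) and -0.60 (SE 0.14). The 3 Splice del libraries had 8.75, 8.92 and 7.24 CPM, overlapping C321fs. ABCC12 rose in Splice del by 1.15 on the log2 scale (SE 0.12, edgeR adjusted p = 2.22e-06). So among the genes that were high in C321fs, Splice del took the C321fs level for ABCC12 and the A333fs level for DOK7.

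HAGLR (chr2:176173189-176188958, minus strand, 4660 bases of exons) had 3.09, 3.27 and 3.23 CPM in control, the tightest group of the 6 genes relative to its mean. C321fs had 6.73, 5.76 and 6.48 CPM and A333fs 2.65, 1.82 and 1.91 CPM. The log2 fold changes were 0.98 (SE 0.12) and -0.59 (SE 0.14). Splice del, at 4.57, 4.43 and 4.67 CPM, lay between control and C321fs and overlapped neither. Its log2 fold change of 0.51 (SE 0.13, edgeR adjusted p = 0.00308) passed the p threshold, but its fold change of 1.42 stayed under the limit, so HAGLR was not called there. It was called with library size alone (0.70) and with upper-quartile normalization (0.60). The exons of HAGLR overlap those of HOXD1 and MIR7704, and the counting ignored the strand. HOXD1 had 0 to 14 counts in a library, where HAGLR had 57 to 221. At these counts HOXD1 changed with the signs of HAGLR, by 0.98 (SE 0.54) in C321fs and -1.62 (SE 0.80) in A333fs on the log2 scale. In Splice del HOXD1 was at 0.42 (SE 0.57). None of these changes was called (edgeR adjusted p = 0.137, 0.092 and 0.552 in the same order).

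ICAM5 (chr19:10289979-10296778, plus strand, 3002 bases of exons) was the scarcest, with 12 to 77 counts in a library. Control had 1.05, 1.25 and 1.08 CPM, C321fs 2.34, 2.05 and 2.01 CPM and A333fs 0.581, 0.638 and 0.352 CPM. The log2 fold changes were 0.92 (SE 0.18) and -1.11 (SE 0.23), with the largest errors of the 6 genes. Splice del had 1.03, 0.887 and 1.04 CPM, all below the lowest control library by a small margin. That difference of -0.19 on the log2 scale (SE 0.20, edgeR adjusted p = 0.443) did not pass the test.

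**Figure D2:**
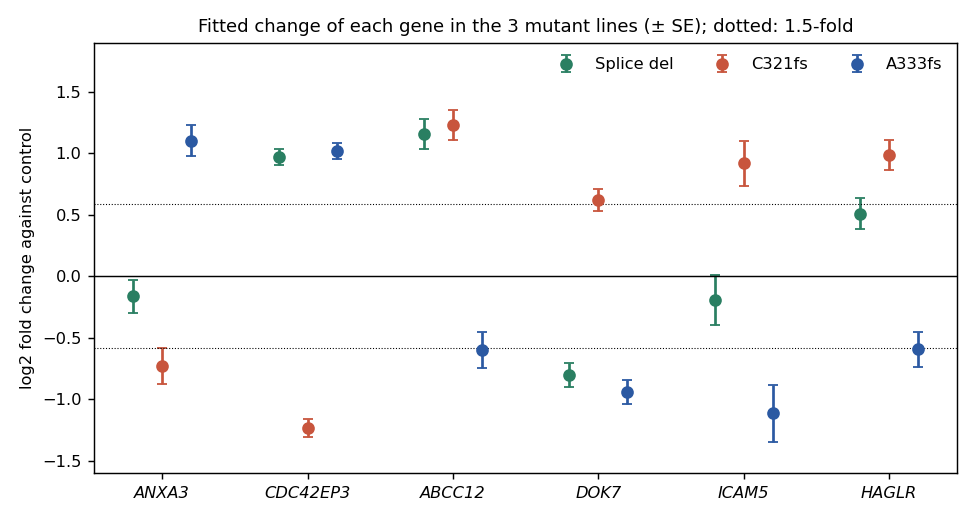
Fitted log2 fold change against control (vertical axis) of the 6 genes in the 3 mutant lines, with bars for ± 1 SE from the fit to all 12 libraries. Dotted lines mark a change of 1.5 times. C321fs and A333fs lie on opposite sides of 0 for every gene, which is how the genes were chosen, and Splice del lies past a dotted line for CDC42EP3, ABCC12 and DOK7.

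Corrected for exon length, the levels fell into 2 ranges. In control, CDC42EP3 had a mean of 5.31 CPM per kb, DOK7 4.997 and ANXA3 4.03. ABCC12 had 0.724 CPM per kb, HAGLR 0.686 and ICAM5 0.375. In C321fs the highest per-length level was that of DOK7 (7.67 CPM per kb), and in A333fs that of CDC42EP3 (10.8 CPM per kb). GATA3 had 417 CPM per kb in control.

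In Splice del, 3 of the 6 genes were called, CDC42EP3 and ABCC12 up and DOK7 down. Over all tested genes, 10.7% were called in Splice del, 6.21% up and 4.53% down. The libraries of Splice del and control did not overlap for 5 of the 6 genes, all but ANXA3, against 62.9% of all tested genes, so that this count is close to what the whole table gave. The difference between Splice del and the other mutant lines is given without a test, since it uses the libraries the genes were chosen on. Against C321fs, Splice del differed by -0.08 on the log2 scale for ABCC12 and by 2.20 for CDC42EP3, -1.42 for DOK7, -1.11 for ICAM5, 0.57 for ANXA3 and -0.48 for HAGLR. Against A333fs it differed by -0.05 for CDC42EP3 and 0.14 for DOK7, and by 1.75 for ABCC12, -1.27 for ANXA3, 1.10 for HAGLR and 0.92 for ICAM5.

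The 6 belong to 24 genes that were called in opposite directions in C321fs and A333fs, which is 0.162% of the tested genes. For comparison, 430 genes were called in both lines in the same direction. In C321fs 4.63% of tested genes were called up and 2.26% down, and in A333fs 5.46% were up and 6.81% down. These percentages describe the comparisons on which the 6 were chosen, and both comparisons share the control libraries. Of the 24, 14 were up in C321fs and down in A333fs, with ABCC12, DOK7, ICAM5 and HAGLR among them, and 10 went the other way, with ANXA3 and CDC42EP3 among them. Of the 18 genes besides the 6, Splice del was called in the direction of C321fs for 2 (L1CAM and SHISA2, both down), in that of A333fs for 0 and not called for 16. CDC42EP3 and DOK7 were the genes among the 24 that were called in Splice del in the direction of A333fs. How the 6 were taken from the 24 is not given. Earlier results of these data were known, so independence of their Splice del calls from the choice is not established.

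**Figure D3:**
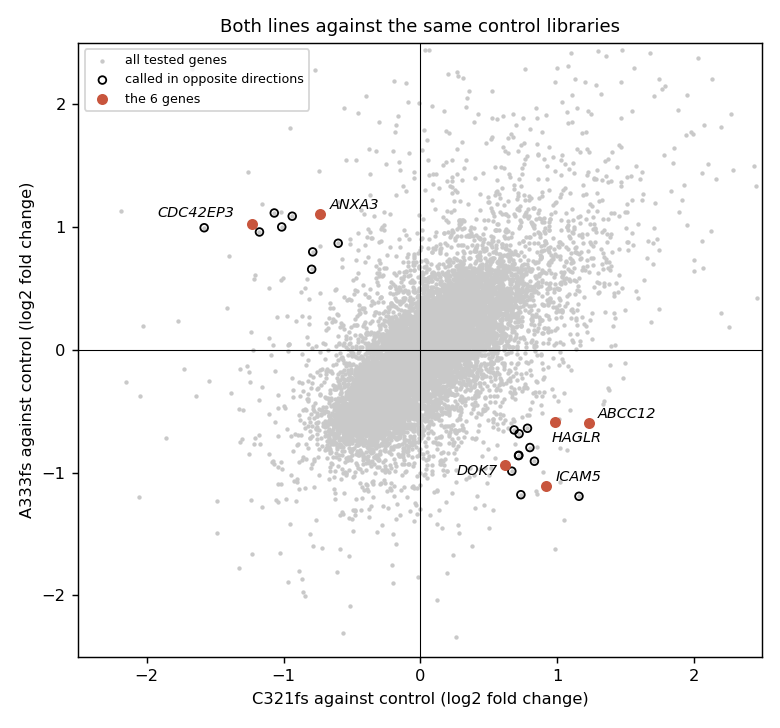
Log2 fold change against control in C321fs (horizontal) and A333fs (vertical) for all tested genes in gray, the 24 genes called in opposite directions as open circles and, among these, the 6 genes in red. Most genes lie along the rising diagonal, the 6 in the upper left and lower right quadrants, and 82 genes lie outside the axes, which end at 2.5.

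Some of the 6 only just met the limit. The smaller of the 2 log2 changes was 0.592 for HAGLR, 0.600 for ABCC12 and 0.619 for DOK7, where the limit is 0.585. Just outside were L3MBTL3 at 0.580, and KCNC1 and CUX2 at 0.573. A further 88 genes had opposite signs with an adjusted p below 0.01 in both lines and fell short of the fold limit. The criteria in both lines were no longer met for HAGLR when A333fs replicate 2, A333fs replicate 3 or control replicate 2 was left out, for ABCC12 without A333fs replicate 1 or control replicate 1, for DOK7 without C321fs replicate 1 or control replicate 1, and for ANXA3 without control replicate 3. The log2 fold changes over these fits were -0.78 to -0.46 for HAGLR in A333fs, -0.68 to -0.48 for ABCC12 in A333fs, 0.51 to 0.70 for DOK7 in C321fs and -0.87 to -0.58 for ANXA3 in C321fs. These fits describe how close the chosen genes lie to the limit and are no test of their pattern. The Splice del calls of CDC42EP3, ABCC12 and DOK7 also stood in each of these fits.

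The base composition of the 6 transcripts differed widely, and the libraries differed in how a level depends on it. The exons of DOK7 and ICAM5 had a GC content of 66.9% and 67.4%, at the 97.8th and 98.3rd percentile of the tested genes. HAGLR had 50.4%, ABCC12 49.6%, CDC42EP3 45.8% and ANXA3 44.7%, where the median of the tested genes was 49.6%. Across genes, the log2 fold change in A333fs against control had a Spearman rho of -0.67 with GC content. In C321fs against control it was -0.55, and in Splice del against control, the comparison tested for the 6, it was -0.51. The slope of log2 CPM per 10 points of GC content was 0.11 to 0.19 in the control libraries. It was at most 0.014 in the libraries of the mutant lines. Between A333fs and C321fs the rho was -0.30. With a trend over GC content and exon length removed from each library, the change of DOK7 in A333fs was -0.44 on the log2 scale in place of -0.94, and that of ICAM5 -0.61 in place of -1.11, and neither then met the criteria by which the genes were chosen in that line. In C321fs the same step gave 0.83 for DOK7 and 1.11 for ICAM5. C321fs replicate 1, which had the highest DOK7 level of its line, differed from the other C321fs libraries in this slope. It had 0.014, where replicates 2 and 3 had -0.114 and -0.117. In Splice del the call of DOK7 stood, at -0.60, while ICAM5 went from -0.19 to 0.02. For CDC42EP3 the corrected changes were 0.85 in A333fs, 0.80 in Splice del and -1.33 in C321fs, and for ANXA3 -0.90 in C321fs and 0.87 in A333fs. The part of GC content in the levels themselves was not tested.

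**Figure D4:**
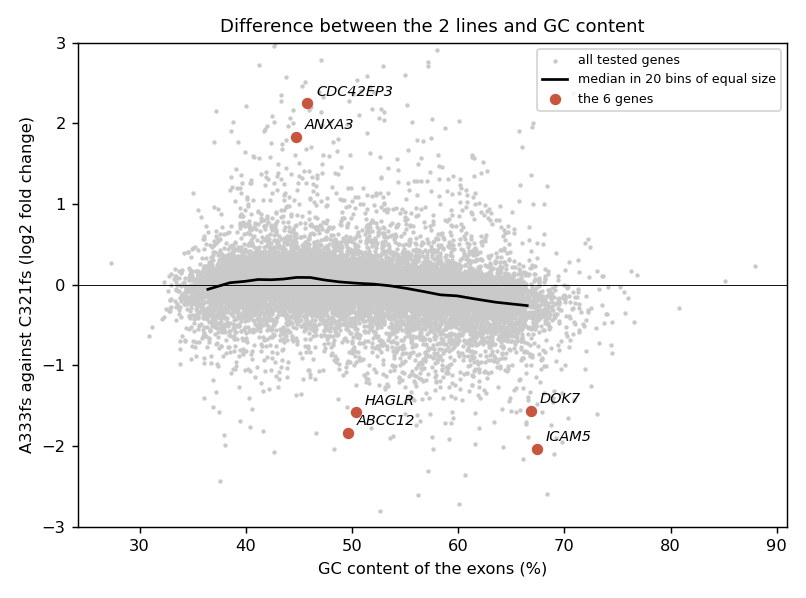
Log2 fold change of A333fs against C321fs (vertical) by GC content of the exons in percent (horizontal) for all tested genes in gray, with the median in 20 bins of equal size as a line. The median falls to -0.26 in the bin with the highest GC content, and the 6 genes in red lie between -2.03 (ICAM5) and 2.25 (CDC42EP3), the closest to 0 being DOK7 at -1.56. The vertical axis ends at 3, and genes beyond it are not drawn.

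The relatives of the 6 genes were described from 6 lists. In these lists of related genes, which leave out the 6 themselves, 56 genes were tested and 0 were called in opposite directions in C321fs and A333fs by edgeR or by DESeq2, a count that the 0.162% of all tested genes would also give. At an unadjusted p under 0.05 in both lines, 2 of the 56 (ABCC3 and ANXA2) had opposite signs. Over the lists, the calls were 3 up and 1 down for Splice del, 3 up and 2 down for C321fs, and 4 up and 8 down for A333fs. The changes in A333fs followed GC content across genes (rho -0.67), and fewer list genes were called there with the GC and length trend removed. Of all tested genes, 6.21% and 4.53%, 4.63% and 2.26%, and 5.46% and 6.81% were called up and down in the same order. The median log2 fold change of the 56 was 0.08 for C321fs, -0.11 for A333fs and -0.02 for Splice del, against 0.02, 0.01 and 0.03 over all tested genes. Beside ANXA3, 8 annexins were tested. ANXA1, which encodes another phospholipid-binding annexin, rose in each line, with a log2 change of 1.45 for C321fs, 1.09 for A333fs and 0.79 for Splice del. ANXA6 fell in C321fs by 0.88. Of 14 CDC42 effectors and septins, 3 were called down in A333fs, where CDC42EP3 was high. They were CDC42EP2 (-0.90) and CDC42EP5 (-1.08), which encode effectors of the same family, and SEPT9 (-0.63), which encodes a septin. SEPT9 was lower in every mutant line, at -0.57 in Splice del and -0.54 in C321fs, where only the fold limit kept it from a call. CDC42EP2 was at -0.52 in Splice del and 0.15 in C321fs, and CDC42EP5 at -0.42 and -0.26. In C321fs and in Splice del 0 of these 14 were called by edgeR or DESeq2, with 7 and 8 of them at an unadjusted p under 0.05.

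Of 8 transporters of family C, ABCC13 rose in C321fs by 0.64 and ABCC11 fell in A333fs by 1.01 on the log2 scale. ABCC11, the gene next to ABCC12, was 0.09 in C321fs (SE 0.07), where ABCC12 was 1.23. In A333fs both were lower than control, ABCC12 at -0.60. In Splice del ABCC11 was at -0.27 and ABCC12 at 1.15. Of 10 genes around agrin, MuSK and the DOK adaptors, AGRN, which encodes the secreted activator of MuSK, fell in C321fs by 0.68 and in A333fs by 0.62. DOK1, which encodes another adaptor of the family, fell in A333fs by 0.71. CHRNG, a subunit of the fetal acetylcholine receptor, was called up in C321fs and A333fs at 2 to 14 counts in a library. Of 10 members and partners of the ICAM family, ICAM1 rose in Splice del by 0.70 and in A333fs by 0.80, and ICAM3 fell by 0.69 in both. ITGAL, which encodes a chain of the integrin that binds ICAM proteins, fell in A333fs by 0.73. ITGAM, the chain of a related integrin, was called up in Splice del and A333fs, from a control mean of 0.0229 CPM to 0.657 and 1.43 CPM. Of 6 tested HOXD genes and HOX noncoding RNAs, 0 were called in a mutant line by edgeR or DESeq2, with 2 to 3 of them at an unadjusted p under 0.05 in each line.

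The genes that lie next to the 6 on the chromosome were compared with them. Genes that overlap one of the 6, such as HOXD1 with HAGLR, were left out. Up to 3 tested genes on each side within 500 kb were taken, which gave 30, and 0 of them were called in opposite directions in C321fs and A333fs by edgeR or DESeq2, nor had any opposite signs at an unadjusted p under 0.05 in both. With 0.162% of all tested genes called in this way, a count of 0 among 30 does not set the neighbors apart. Among them 5 rose and 3 fell with Splice del, 2 rose and 1 fell with C321fs, and 3 rose and 4 fell with A333fs, where the shares of all tested genes were 6.21% up and 4.53% down, 4.63% up and 2.26% down, and 5.46% up and 6.81% down. Fewer neighbors were called in A333fs and in Splice del with the GC and length trend removed. ICAM1, at 3.36 kb from ICAM5, had log2 fold changes of 0.08 in C321fs and 0.80 in A333fs, where ICAM5 had 0.92 and -1.11. Also near ICAM5, S1PR2, which encodes a receptor for sphingosine 1-phosphate, rose in C321fs by 0.88 and was at -0.04 in A333fs, and RAVER1 fell in all 3 mutant lines, by 0.72 (C321fs), 0.78 (A333fs) and 0.71 (Splice del line). All 6 tested neighbors of ICAM5 were called in Splice del, where ICAM5, at 30 to 40 counts in a library (SE 0.20), was not. ZGLP1 was near the limit, at 0.62, and at 0.53 in the lowest fit with a library left out. With the GC and length trend removed, not all of these 6 were called. MRPL4, FDX1L and RAVER1 fell there, and ICAM1, S1PR2 and ZGLP1 rose. LRPAP1, at 2.12 kb from DOK7, was at -0.29 in C321fs and -0.23 in A333fs. ADRA2C, at 265 kb from DOK7, was called down in A333fs (-0.62), as DOK7 was lower there. It was at -0.46 in Splice del and -0.06 in C321fs, where DOK7 was higher. The noncoding LOC100507577, at 209 kb from ABCC12, was called up in Splice del (1.29) and C321fs (1.11) and was at 0.33 in A333fs, where ABCC12 was lower than control. QPCT, at 269 kb from CDC42EP3, rose in Splice del by 0.82 and in A333fs by 0.74 and was at 0.51 in C321fs, where CDC42EP3 was lower. The 2 tested neighbors of ANXA3, BMP2K and PAQR3, were called in none of the lines. The same held for the 6 of HAGLR. Of these, HOXD11 was at 0.89 in C321fs and -0.11 in A333fs, and HOXD12 at -0.61 and 0.29, both with at most 41 counts in a library. LINC01116, at 441 kb, was at 0.56 in C321fs and 0.06 in A333fs.

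**Figure D5:**
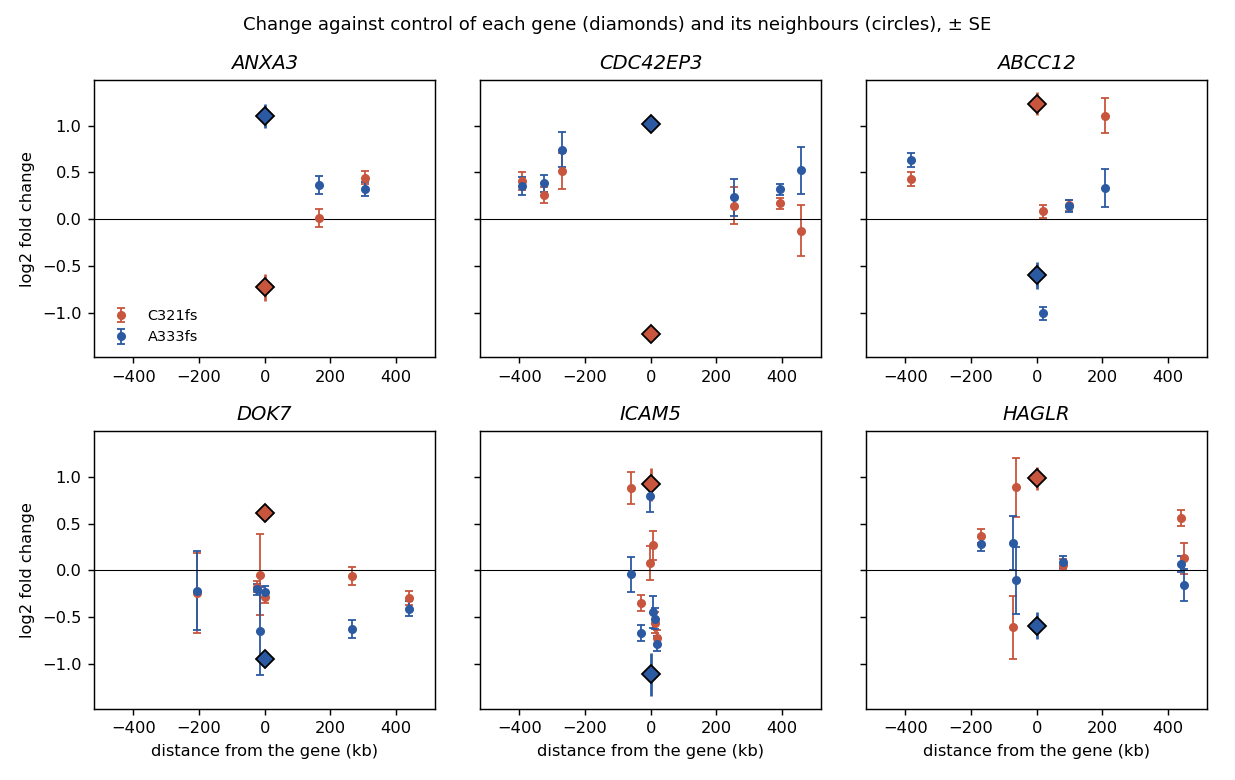
Log2 fold change against control (vertical, ± 1 SE) in C321fs (red) and A333fs (blue) for each of the 6 genes (diamonds at 0) and their tested neighbors (circles) by distance in kb. The 2 diamonds of each gene lie on opposite sides of 0, while 0 of the 30 neighbors were called on both sides of 0.

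Genes elsewhere in the genome had profiles close to those of the 6. Likeness was measured as the Pearson r of log2 CPM over the 12 libraries, which come from 4 pools, and is a description. For CDC42EP3 the most alike were CPAMD8 (r = 0.984) and SRGAP3 (r = 0.980), with smaller changes, of -0.66 and -0.73 in C321fs and 0.34 and 0.46 in A333fs. For DOK7 they were PFKP (r = 0.982), a phosphofructokinase of glycolysis, and SNCG (r = 0.981), which encodes gamma-synuclein. For ABCC12 they were TIMP2 (r = 0.979), an inhibitor of matrix metalloproteinases, and the transcription factor gene MYB (r = 0.976). For ANXA3 they were TPM1 (r = 0.974), which encodes a tropomyosin, and OLR1 (r = 0.971), and for HAGLR RCOR2 (r = 0.979) and KCNS3 (r = 0.977). ICAM5 was most like KREMEN2 (r = 0.968) and ETV4 (r = 0.963), which are both among the 24 genes called in opposite directions. ETV4, an ETS family transcription factor gene, had a mean of 2.02 CPM in control, 4.50 in C321fs and 0.884 in A333fs. Among the 6 themselves, ABCC12 and HAGLR had an r of 0.896 and ANXA3 and HAGLR one of -0.927, while ABCC12 and DOK7, both high in C321fs, had an r of 0.450. The libraries include those on which the 6 were chosen, so the signs of these r follow largely from the choice.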

How the data were processed

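RNA-seq of 12 libraries, 3 for each of control, Splice del, C321fs and A333fs, was used. After trimming with Trimmomatic and alignment to hg38, the authors deposited counts of fragments per gene from featureCounts 1.6.4, without strand and not normalized. The submitters' processing notes name HISAT2 and the path in the file header names STAR, so the aligner is not settled, and neither is the growth medium, for which the labels and the methods differ. The quasi-likelihood model of edgeR 4.0.16 (R 4.3.3) had 1 coefficient per line, on TMM-normalized genes that passed filterByExpr by line. All p-values were adjusted over the 14789 tested genes. The common dispersion was 0.00453. The log2 CPM used a prior count of 2. The GC trend was a loess fit with a span of 0.3 per library, entered as offsets. Replicate numbers did not pair the libraries (18 pairs of residuals, mean r -0.00915, range -0.123 to 0.165). Alternatives were RLE, upper-quartile and library-size scaling, no filter, at least 10 counts in every library, DESeq2 1.42.0 with and without betaPrior, a replicate block, fits to the compared lines alone, removal of the GC and length trend and fits without each library. The script was tested on simulated counts. The genes, the lists and the rules for named genes were chosen with earlier results of these data known. Named list and neighboring genes were mainly those called in a line or nearest to one of the 6, and the 2 most alike by correlation. Some named neighbors were neither, such as HOXD12, LINC01116 and PAQR3. Some that were nearest on a side, such as HGFAC and MTX2, are not named.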

Additional observations from a re-analysis of the deposited data

How the results depend on the processing

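In each of 22 alternatives CDC42EP3, ABCC12 and DOK7 kept their Splice del calls. The signs of the 6 genes in C321fs and A333fs, by which they were chosen, stayed as well and are no sign of stability. With library size alone, the median over all genes moved from 0.03 to 0.22 for Splice del, from 0.02 to 0.19 for C321fs and from 0.01 to 0.16 for A333fs (log2). Splice del calls then were 2025 up and 171 down (918 and 670 with TMM), C321fs calls 1518 and 110 (684 and 334) and A333fs calls 1544 and 380 (808 and 1007). ANXA3 was 0.024 and HAGLR 0.70 (called) in Splice del, CDC42EP3 -1.07, ABCC12 1.40 and HAGLR 1.15 in C321fs, CDC42EP3 1.17 and DOK7 -0.79 in A333fs, 3 of the 6 genes were called opposite, and 7 neighbors were called in C321fs. With upper-quartile scaling (medians 0.12, 0.11 and 0.12) 348 genes were called down for Splice del and 163 for C321fs, and A333fs had 475 down and 1329 up, HAGLR was 0.60 (called) in Splice del and CDC42EP3 1.13 in A333fs. Without the GC and length trend 358, 190 and 227 genes were called down in the 3 lines. Of the list genes 5 were then called in A333fs (4 up and 8 down in the main fit). Of the neighbors 2 were called in A333fs (3 up and 4 down in the main fit). In Splice del 5 neighbors were called (5 up and 3 down in the main fit). ICAM5 was at 0.021 in Splice del, 1.11 in C321fs and -0.61 in the A333fs line. In A333fs CDC42EP3 was at 0.85 and DOK7 at -0.44. Of the 24 opposite genes 11 were shared with the 25 called then. DESeq2 with betaPrior called 15 genes opposite, 3 of them among the 6, 3 list genes in C321fs and 5 neighbors in Splice del, with ICAM5 at 0.69 and -0.67. Of the 6, HAGLR was not called opposite by DESeq2 or with RLE scaling, ABCC12 and HAGLR not with upper-quartile scaling, no filter, at least 10 counts or the compared lines alone, ABCC12, DOK7 and HAGLR not with betaPrior and ANXA3, ABCC12 and HAGLR not with library size alone. The cause was not tested.

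Leaving out 1 library gave 213 to 552 genes down in C321fs (552 without C321fs replicate 1, 213 without control replicate 2), 3 to 7 called list genes in C321fs, 3 to 8 in Splice del and 3 to 5 neighbors in C321fs. In the replicate block fit 22 genes and all 6 were called opposite, and no Splice del call of the 6 genes changed. ICAM5, at 12 to 77 counts, is the gene that depth limits most.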
